A study of Mus musculus with 4 samples.

Results

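The aryl hydrocarbon receptor axis was taken here as 6 genes, Ahr, Arnt, Ahrr, Tiparp, Cyp1b1 and Cyp1a1, found by gene symbol among 54532 genes in the deposited table. They were selected on the raw counts of these same ALP and control libraries, so their values in this contrast are a description and carry no test. The libraries came from C57BL/6 mouse EpSCs, skin epidermal stem cells whose progeny replace the keratinocytes of the epidermis, kept in EpiLife medium with the HKGS supplement. One group was given ALP at 30 μg/mL, taken to be the polysaccharide of burdock (Arctium lappa L.) in the series title, and the other 0.06% DMSO as vehicle control, both for 48 h, with 2 libraries each. The labels give no age or sex, and leave unsaid whether replicate libraries stem from separate animals or cultures and whether ALP was given in DMSO. Any p-value therefore measures only the spread between these libraries, which may be technical. The letters A and B name the libraries and pair nothing.

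The receptor encoded by Ahr is a ligand-activated transcription factor of the bHLH-PAS family that waits in the cytosol with HSP90 and its partners. Once it binds a dioxin-like compound, a tryptophan derivative or a plant product, it enters the nucleus, pairs with the protein of Arnt and binds DNA at the core GCGTG. Cyp1a1 and Cyp1b1, which encode cytochrome P450 enzymes that oxidise many such ligands, are classical targets, and Ahrr and Tiparp are targets whose products restrain the receptor. In skin the receptor is known for its part in barrier gene expression and in chloracne, the skin disease of dioxin exposure.

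Total counts lay between 15766244 and 17430345 per library, and of 14056 genes that passed the low-count filter 4350 (30.9%) differed between ALP and control by edgeR's quasi-likelihood test at an adjusted p under 0.05, 2537 (18.0%) higher and 1813 (12.9%) lower in ALP. In 75.7% of the tested genes the ALP and control libraries did not overlap. The ALP libraries stood further apart than the controls, with a median absolute log2 difference over all tested genes of 0.216 for ALP and 0.123 for control. Without control library A or without control library B edgeR called 0 genes, although 3380 and 4131 genes then had an unadjusted p under 0.05, and without ALP library A it called 7518. Without the low-count filter it also called 0 genes, with 7068 at an unadjusted p under 0.05. Of 6 basal keratinocyte markers 2 were higher and 2 lower in ALP. Itgb4 at 1670 and 2020 CPM and Itga6 at 1170 and 1240 CPM in ALP were the higher ones, against 769 and 905 CPM and 926 and 933 CPM in control. Trp63, at a log2 fold change of -0.61, and Col17a1, at -0.78, were the lower ones. Krt5, which was not called, measured 14800 and 12300 CPM in ALP against 21200 CPM in each control library. Krt14, not called either, measured 14300 and 11200 CPM in ALP against 19000 and 19200 CPM in control. Summed markers of fibroblasts reached 7.93 and 4.46 CPM in ALP against 17.5 and 13.6 in control, mostly through Dcn at 3.07 and 0.517 CPM in ALP against 13.1 and 8.57 in control, the only one of the 5 tested that was called. Those of melanocytes summed to 69.6 and 57.9 CPM in ALP against 73.3 and 67.2 in control, and of the 6 only Mitf was called, as lower. Endothelial markers summed to 14.8 and 25.2 CPM in ALP against 6.85 and 8.05 in control, mostly from Kdr and Pecam1, both called higher. Tek went the other way and was called lower, with 4 and 3 counts in ALP against 28 and 20 in control. It passed the low-count filter only through its control libraries. Vwf, not tested, had 2 and 3 counts in ALP against 12 and 6 in control. The defining marker Cdh5 had at most 2 counts in any library. Immune markers summed to 7.23 and 5.04 CPM in ALP against 9.46 and 10.1 in control, nearly all from Cd68, with Ptprc, Adgre1, Cd3e and Cd207 at 0 or 1 count in every library. Merkel cell markers summed to 2.89 and 5.69 CPM in ALP against 1.25 and 1.43 in control, carried by Piezo2, with Atoh1 at no more than 2 counts. The part of any such cells in the results below was not tested.

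Of the 6 members, 5 passed the low-count filter and Cyp1a1 did not. By fitted fold change Ahr lay furthest below and Ahrr furthest above control, with Tiparp higher, Arnt near its control level and Cyp1b1 split between the ALP libraries. In the fit across all genes 2 of the 5, Ahr and Tiparp, passed the threshold, where 30.9% of all tested genes did, and nothing is read from this count because the same contrast chose the members. The count was 0 without either control library and 4 without ALP library A, which added Arnt and Cyp1b1 as lower. In 4 of the 5 the groups did not overlap, the exception being Cyp1b1, beside 75.7% of all tested genes. Ahrr counts among these 4 although it passed the filter only through its ALP libraries.

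The receptor gene itself was lower in ALP. Ahr lies on the minus strand of chromosome 12 (35497974 to 35535038, GRCm38). It had 1016 and 419 counts in ALP libraries A and B, against 2753 and 2373 in control libraries A and B. Scaled to library size this was 58.8 and 27.1 CPM in ALP against 156 and 136 CPM in control, where CPM stands for counts per 1000000 after TMM scaling. The higher ALP library lay well below the lower control, and the ALP libraries were themselves 1.11 apart on the log2 scale. The fitted log2 fold change was -1.76 ± 0.35 (SE, n = 2 per group), which leaves 29.5% of the control level. It was -2.43 without ALP library A and -1.30 without ALP library B, so its size depended on the ALP library. An annotated gene on the opposite strand, Gm48236, shares 2.06% of the exon bases of Ahr and had 2 counts over all libraries. In bulk RNA, fewer cells that express a gene and less RNA per cell cannot be told apart.

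Arnt encodes the partner that the receptor shares with the hypoxia-inducible factors. It lies on the plus strand of chromosome 3 (95434388 to 95497240). Its levels were 87.3 and 77.6 CPM in ALP against 93.1 and 93.6 CPM in control. Both ALP libraries were lower than both controls, by little, and the log2 fold change was -0.18 ± 0.10 (SE), with -0.27 without ALP library A and -0.08 without ALP library B.

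Per length, Ahr lay below Arnt in both ALP libraries and above it in both controls. Scaled CPM divided by gene length in kilobases (RPKM) were 9.54 and 4.40 for Ahr in ALP against 25.3 and 22.0 in control. For Arnt they were 10.9 and 9.69 RPKM in ALP against 11.6 and 11.7 RPKM in control. Ahr was thus at 0.875 and 0.454 of the Arnt level in the ALP libraries, and at 2.18 and 1.88 times the Arnt level in the control libraries. Ahr lay above 63.9% and 45.2% of tested genes by RPKM in ALP libraries A and B, against 86.3% and 83.5% in control libraries A and B, whereas Arnt stayed between 64.3% and 69.8% in all 4 libraries. These ratios are of transcripts and say nothing of protein.

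**Figure D1:**
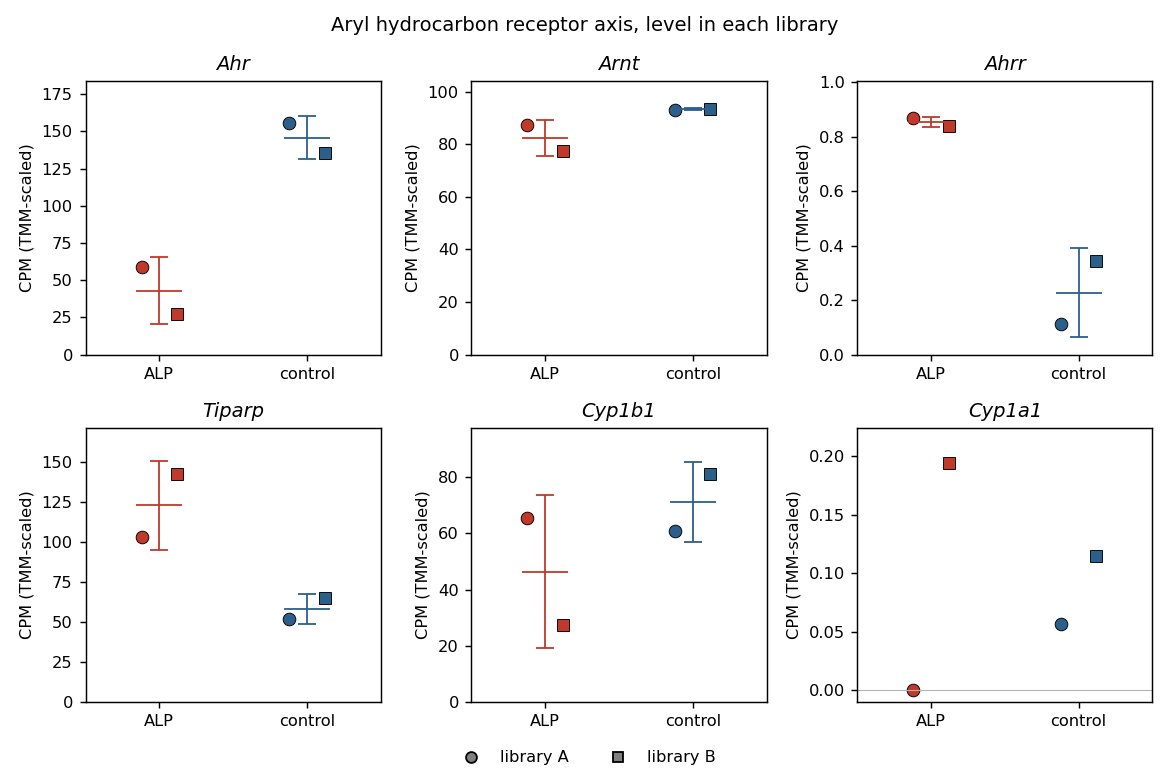
Level of each of the 6 genes in CPM (vertical axis, linear, TMM-scaled) in ALP and control libraries. Circles are library A and squares library B, horizontal bars are group means with SD (n = 2 each, left out for Cyp1a1, which had at most 3 counts). Ahr measured 58.8 and 27.1 CPM in ALP below both controls, Tiparp 103 and 142 CPM above them, and the ALP libraries of Cyp1b1 straddled the lower control.

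Of the genes of the receptor's own inhibitors, Tiparp lay higher in ALP, while the difference for Ahrr rests on few reads. Tiparp encodes PARP7, a mono-ADP-ribosyltransferase that modifies the receptor and restrains it. It lies on the plus strand of chromosome 3 (65528410 to 65555518). It had 1782 and 2202 counts in ALP against 912 and 1136 in control, or 103 and 142 CPM in ALP against 51.6 and 64.9 CPM in control. The lowest ALP library exceeded the highest control, and the log2 fold change was 1.07 ± 0.19 (SE), with 0.83 without ALP library B and 1.28 without ALP library A. A pseudogene on the opposite strand, 4931440P22Rik, shares 5.12% of the exon bases of Tiparp and had 50 counts in all 4 libraries together. The effect of this overlap on the Tiparp count was not tested. By RPKM, Tiparp was 2.48 and 7.43 times the level of Ahr in ALP, against 0.468 and 0.677 times in control.

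Ahrr encodes the aryl hydrocarbon receptor repressor, a relative of the receptor that competes with it for the Arnt protein. It lies on the minus strand of chromosome 13 (74211118 to 74292331). Only 15 and 13 counts were found in ALP against 2 and 6 in control, or 0.868 and 0.840 CPM in ALP against 0.113 and 0.343 CPM in control, where 3 counts correspond to 0.170 to 0.194 CPM. Summed over libraries the 28 counts in ALP and 8 in control give a ratio of 3.76 after scaling. The fitted log2 fold change of 1.88 ± 0.59 (SE) rests on these few reads, being 1.29 without control library A and 2.84 without control library B. Ahrr passed the filter on low counts only through its ALP libraries.

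No direction could be read for either cytochrome P450 gene of the axis. Cyp1b1, the family member typical of tissues outside the liver, lies on the minus strand of chromosome 17 (79706953 to 79715041). It had 1135 and 421 counts in ALP against 1078 and 1422 in control, or 65.7 and 27.2 CPM in ALP against 61.0 and 81.2 CPM in control. ALP library A lay between the controls and ALP library B below both, so the groups overlapped. The log2 fold change was -0.61 ± 0.40 (SE), and it was -0.10 without ALP library B and -1.39 without ALP library A. Relative to Ahr, the RPKM of Cyp1b1 was 1.34 and 1.21 times in the ALP libraries against 0.471 and 0.720 times in the controls, so the transcript of the enzyme exceeded that of the receptor in both ALP libraries and in neither control. These values use the deposited length of 5128 bases for Cyp1b1. GENCODE M21 gives it other coordinates and 5840 exon bases, with which its RPKM and these ratios would be lower.

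Cyp1a1, the gene most often used to read out receptor activity, was at the limit of detection. It lies on the plus strand of chromosome 9 (57687928 to 57703824) and had 0 and 3 counts in ALP against 1 and 2 in control. The summed counts were 3 in ALP and 3 in control, a ratio of 1.07 with a 95% interval of 0.144 to 8.02 for counting error, so a change of several fold in either direction was not detectable at this depth. Its neighbour Cyp1a2 had 0 counts in every library, which allows up to 0.170 to 0.194 CPM per library.

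In the order of length-corrected levels, ALP libraries had Tiparp first at 28.2 ± 6.37 RPKM (mean ± SD, n = 2), then Arnt at 10.3 ± 0.86, Cyp1b1 at 9.06 ± 5.30 and Ahr at 6.97 ± 3.64, with Ahrr and Cyp1a1 under 0.1. Arnt and Cyp1b1 changed order between the ALP libraries, at 10.9 and 12.8 RPKM in ALP library A and 9.69 and 5.31 RPKM in ALP library B. In control libraries Ahr came first at 23.6 ± 2.34 RPKM, then Cyp1b1 at 13.9 ± 2.78, Tiparp at 13.4 ± 2.15 and Arnt at 11.7 ± 0.04, with Ahrr and Cyp1a1 again under 0.1. Cyp1b1, Tiparp and Arnt lay close together in control library A, at 11.9, 11.9 and 11.6 RPKM. In control library B they were at 15.8, 14.9 and 11.7 RPKM. The place of Cyp1b1 above Tiparp in control depends on the gene length used for Cyp1b1. Within each library Ahr ranked last of these 4 genes in both ALP libraries and first in both controls.

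**Figure D2:**
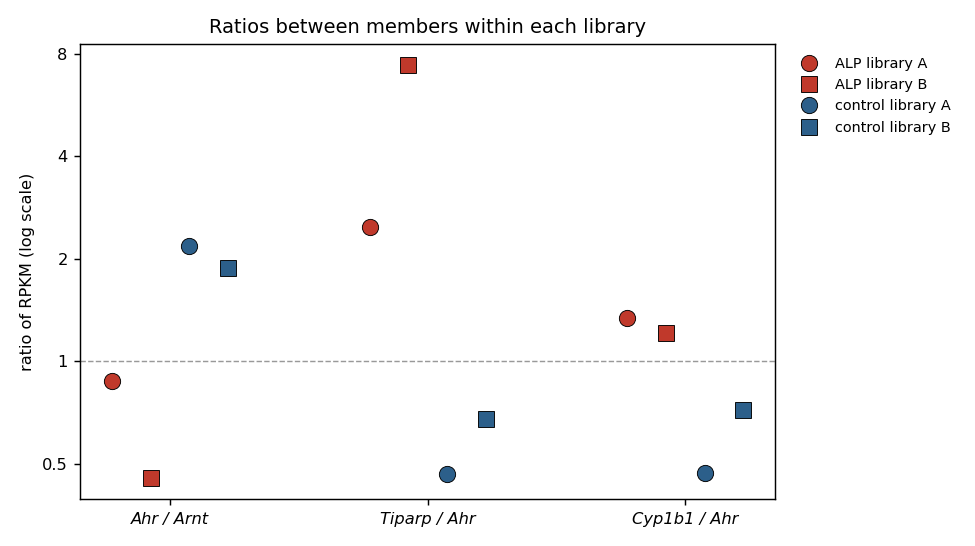
Ratio of RPKM between pairs of members within each library (vertical axis, log scale), for Ahr over Arnt, Tiparp over Ahr and Cyp1b1 over Ahr. Red symbols are ALP and blue symbols control, circles library A and squares library B, and the dashed line marks equal levels. Ahr over Arnt was 0.875 and 0.454 in ALP against 2.18 and 1.88 in control, and the other ratios crossed the line the opposite way.

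Of the 4 target genes, Ahrr holds more copies of the core GCGTG just before its RefSeq start than Tiparp, Cyp1b1 or Cyp1a1. The 250 bases upstream of the RefSeq start (GRCm38.p6) are printed to show where the core lies. Capitals mark GCGTG or its reverse complement CACGC, each sequence reads 5′ to 3′ on the strand of the gene, and the same letters are also one form of the hypoxia response element core. Of the 6 genes, 5 matched the RefSeq promoter table by symbol, the unmatched one being Ahr. The windows are chr13:74292332-74292581 for Ahrr, chr3:65528197-65528446 for Tiparp, chr17:79715062-79715311 for Cyp1b1 and chr9:57697363-57697612 for Cyp1a1. The Cyp1a1 window lies wholly inside the gene span given above (57687928 to 57703824). The Tiparp window ends inside the span of that gene, which starts at 65528410.
Ahrr: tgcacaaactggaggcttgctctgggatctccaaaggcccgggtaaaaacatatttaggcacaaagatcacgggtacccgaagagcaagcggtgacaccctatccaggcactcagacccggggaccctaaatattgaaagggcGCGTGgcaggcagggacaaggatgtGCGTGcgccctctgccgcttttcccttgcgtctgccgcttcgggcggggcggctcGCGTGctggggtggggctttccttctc
Tiparp: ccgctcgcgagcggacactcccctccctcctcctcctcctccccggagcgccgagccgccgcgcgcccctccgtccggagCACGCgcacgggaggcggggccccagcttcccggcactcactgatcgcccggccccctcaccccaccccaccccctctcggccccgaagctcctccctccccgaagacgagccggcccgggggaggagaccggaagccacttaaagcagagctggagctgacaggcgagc
Cyp1b1: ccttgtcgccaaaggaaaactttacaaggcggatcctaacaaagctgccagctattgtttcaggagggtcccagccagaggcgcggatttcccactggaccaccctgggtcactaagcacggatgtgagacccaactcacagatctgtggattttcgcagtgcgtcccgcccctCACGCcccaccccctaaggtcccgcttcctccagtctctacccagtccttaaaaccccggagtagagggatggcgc
Cyp1a1: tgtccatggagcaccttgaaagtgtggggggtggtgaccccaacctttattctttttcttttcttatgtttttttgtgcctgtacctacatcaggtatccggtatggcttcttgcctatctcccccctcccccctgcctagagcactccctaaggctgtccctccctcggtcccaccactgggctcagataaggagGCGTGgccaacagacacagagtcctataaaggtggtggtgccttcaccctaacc
Ahrr holds 3 copies, and Tiparp, Cyp1b1, Cyp1a1 and Arnt hold 1 each. Among 10049 promoters of genes that passed the low-count filter, 46.2% had at least 1 copy in the same window on either strand and 5.57% had at least 3. A copy in this window is a description of the letters and not a binding site.

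The other genes of the pathway were read from 7 lists of 94 genes, of which 71 passed the filter. Of these 12 were higher and 20 lower in ALP, 45.1% in all against 30.9% of all tested genes, and the median log2 fold change was -0.18 against -0.003 over all tested genes. The lists were drawn up with results of these libraries known, and every count of them below was 0 without either control library. Adjusted p-values are those of edgeR's quasi-likelihood test with Benjamini-Hochberg adjustment over all 14056 genes.

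Among the 4 genes of the cytosolic complex that holds the receptor before ligand binding, 2 rose and 0 fell, with a median of 0.36. Hsp90aa1, the inducible HSP90 gene, measured 1000 and 1406 CPM in ALP against 492 and 538 CPM in control, a rise of 1.22 ± 0.18 on the log2 scale (SE, adjusted p = 0.0151). Ptges3, which encodes the co-chaperone p23, measured 145 and 171 CPM in ALP against 107 and 111 CPM in control (log2 fold change 0.54 ± 0.11, adjusted p = 0.0219). The constitutive HSP90 gene Hsp90ab1 was at 2837 and 2945 CPM in ALP against 2538 and 2575 CPM in control and did not pass (0.18 ± 0.12, adjusted p = 0.275).

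The called relatives of the receptor in the bHLH-PAS family were all lower in ALP. Of 16 listed genes 11 were tested, 0 rose and 5 fell, with a median of -0.44. Of all tested genes 30.9% were called and 12.9% were lower. The ALP libraries lay below both controls for 8 of the 11 and above both for 1, and did not overlap in 75.7% of all tested genes. The 1 above was Clock, named after its values were seen (0.15 ± 0.11, adjusted p = 0.345). The circadian gene Npas2 had 6 and 3 counts in ALP against 32 and 25 in control, a summed ratio of 0.170 with a counting interval of 0.0738 to 0.345 (adjusted p = 0.0196). Npas2 passed the low-count filter only through its control libraries, and the interval leaves out the spread between libraries. Ncoa1 and Ncoa2, coactivator genes of nuclear receptors, fell by 0.61 ± 0.16 and 0.55 ± 0.13 on the log2 scale (adjusted p = 0.0410 and 0.0306). Hif1a, which encodes the oxygen-regulated subunit that also pairs with the Arnt protein, was at 337 and 283 CPM in ALP against 420 and 399 CPM in control (-0.40 ± 0.11, adjusted p = 0.0443). Epas1, the gene of HIF-2 alpha, named here after its values were seen, was at 9.32 and 5.11 CPM in ALP against 15.5 and 14.3 CPM in control (-1.04 ± 0.29, adjusted p = 0.0462). Arnt2, a second possible partner, stayed under 1 CPM in every library. No gene of the list fell as far as Ahr except Npas2, by the fitted fold change, and the value for Npas2 rests on few reads in ALP.

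Reported targets of the receptor other than the 6 genes went both ways. Of 21 listed genes 16 were tested, 4 rose and 5 fell, with a median of -0.50. Nqo1, a quinone reductase gene that also answers to NRF2, measured 42.2 and 55.5 CPM in ALP against 13.5 and 13.4 CPM in control (1.86 ± 0.16, adjusted p = 0.0149). Ereg, which encodes the EGF receptor ligand epiregulin, measured 8.04 and 12.7 CPM in ALP against 0.849 and 0.857 CPM in control (3.59 ± 0.35, adjusted p = 0.0149). Ptgs2, the cyclooxygenase-2 gene, rose by 0.96 ± 0.16 (adjusted p = 0.0160), and Serpinb2, a serpin gene of keratinocytes, fell by 0.52 ± 0.09 (adjusted p = 0.0171). The remaining genes that passed, named after their values were seen, were Nfe2l2 at 0.41 and, lower in ALP, Cyp2s1 at -2.18, Scin at -1.44, Cdkn1b at -1.14 and Xdh at -1.13. Against the control mean, ALP library B was the lower library for these 4, with -1.45 in ALP library A and -3.64 in ALP library B for Cyp2s1, -0.96 and -2.07 for Scin, -0.80 and -1.57 for Cdkn1b, and -0.76 and -1.63 for Xdh. The classical battery genes Aldh3a1, Ugt1a6a and Ugt1a6b had fitted differences of -1.64, -1.51 and -1.05 at under 2.1 CPM and did not pass (adjusted p = 0.106, 0.179 and 0.412). These differences came mostly from ALP library B. In ALP libraries A and B they were -0.85 and -2.33 for Aldh3a1, -0.59 and -2.52 for Ugt1a6a, and -0.11 and -3.73 for Ugt1a6b. Ugt1a6b had 23 and 0 counts in ALP against 26 and 25 in control. The spans of Ugt1a6a and Ugt1a6b overlap on chromosome 1. Gsta1, Gsta2, Il6 and Cd36 had at most 2 counts in any library.

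Genes that make or remove receptor ligands from tryptophan were largely silent. Of 12 listed genes 3 were tested, and Ido1, Ido2, Kynu and Aadat had 0 counts in all 4 libraries. Kyat3, a kynurenine aminotransferase gene, measured 11.8 and 13.6 CPM in ALP against 7.93 and 7.54 CPM in control (0.72 ± 0.17, adjusted p = 0.0323). Kyat1 was at 8.51 and 7.31 CPM in ALP against 11.7 and 9.02 CPM in control, and Afmid at 1.39 and 1.23 CPM in ALP against 0.453 and 1.03 CPM in control, and neither passed (adjusted p = 0.198 and 0.227).

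Most PARP relatives of Tiparp did not pass the test. Of 19 relatives and ADP-ribose hydrolase genes, all tested, 1 rose, 2 fell and 16 did not pass, with a median of -0.02. Macrod1, a mono-ADP-ribose hydrolase gene, measured 4.40 and 2.20 CPM in ALP against 11.2 and 10.4 CPM in control (-1.70 ± 0.33, adjusted p = 0.0202, and -2.30 without ALP library A). Parp1 rose by 0.31 ± 0.09 and Parp6 fell by 0.48 ± 0.13 (adjusted p = 0.0449 and 0.0450), and neither passed by DESeq2. Parp2, at 27.2 and 25.6 CPM in ALP against 21.2 and 19.8 CPM in control, did not pass (adjusted p = 0.0686). DESeq2 called 1 of the 19, library totals without scaling factors gave 2 and leaving out ALP library A gave 6.

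Other cytochrome P450 genes and their electron donors numbered 11 tested of 14 listed, with 3 higher and 4 lower in ALP and a median of -0.38. Por, which encodes the reductase that feeds electrons to microsomal P450 enzymes, measured 109 and 117 CPM in ALP against 65.1 and 78.9 CPM in control (0.65 ± 0.12, adjusted p = 0.0185). Cyp51, the sterol demethylase gene of cholesterol synthesis, measured 504 and 625 CPM in ALP against 224 and 277 CPM in control (1.17 ± 0.15, adjusted p = 0.0149). Cyp27a1, a sterol hydroxylase gene, had 38 and 1 counts in ALP against 199 and 213 in control, a summed ratio of 0.102 (adjusted p = 0.0279). The counting interval of 0.0712 to 0.141 for this ratio leaves out the spread between libraries. Cyp27a1 reached the cutoff of the low-count filter in both control libraries but not in ALP library B. Cyp27a1 did not pass by DESeq2, and its log2 fold change was -7.35 without ALP library A and -2.40 without ALP library B. Cyp2j6, a further P450 gene of the list, fell by 0.76 ± 0.19 (adjusted p = 0.0366).

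The barrier genes that receptor ligands are reported to act on were mostly lower. Of 8 listed genes 7 were tested, 1 rose and 4 fell, with a median of -1.74. Lor, the loricrin gene, measured 5.61 and 3.43 CPM in ALP against 27.7 and 25.7 CPM in control (-2.55 ± 0.25, adjusted p = 0.0149). Flg, the filaggrin gene, had 16 and 2 counts in ALP against 112 and 83 in control, a summed ratio of 0.0991 (adjusted p = 0.0171). The counting interval of 0.0575 to 0.161 for this ratio leaves out the spread between libraries. Flg reached the cutoff of the low-count filter in both control libraries but not in ALP library B. The log2 fold change of Flg was -5.35 without ALP library A and -2.56 without ALP library B. Sprr2d fell by 1.74 ± 0.30 (adjusted p = 0.0164), and as one of a family of close paralogs its count is uncertain. Ivl, the involucrin gene, went the other way at 7.70 and 10.7 CPM in ALP against 5.04 and 4.68 CPM in control (0.92 ± 0.24, adjusted p = 0.0380). Ovol1, a transcription factor gene that acts upstream of filaggrin, was at 32.9 and 18.2 CPM in ALP against 45.5 and 46.7 CPM in control and did not pass (-0.85 ± 0.27, adjusted p = 0.0615).

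**Figure D3:**
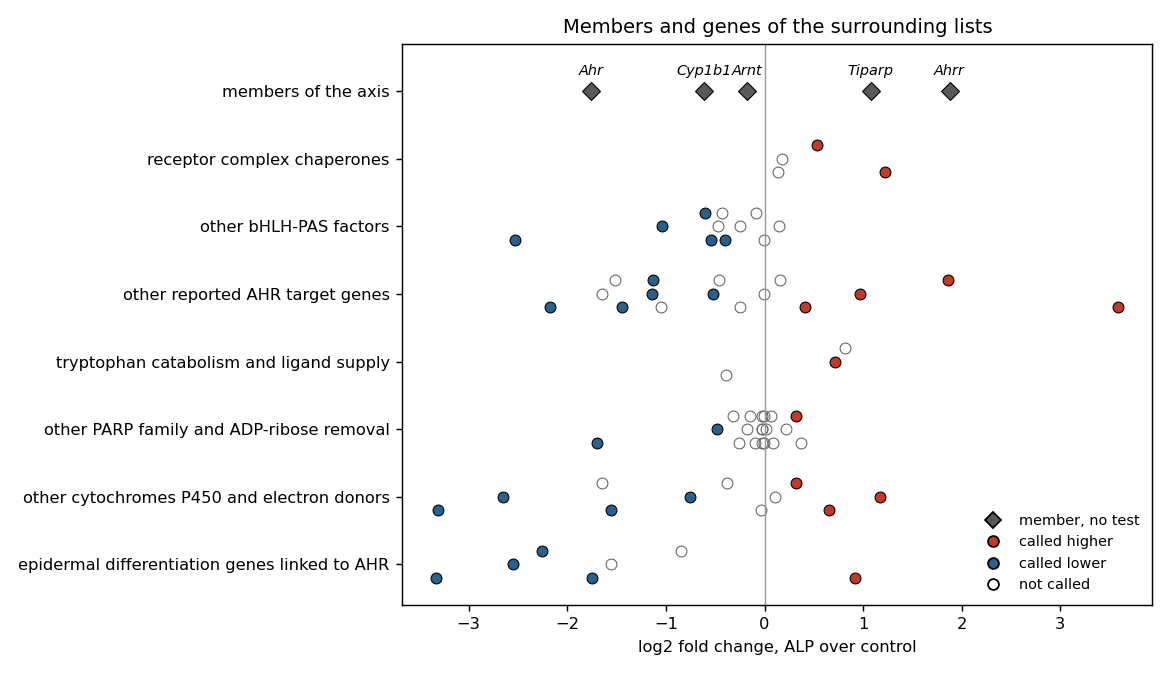
Log2 fold change of ALP over control (horizontal axis) for the 5 tested members (diamonds, described without a test) and for the tested genes of each list (circles). Filled circles passed an adjusted p under 0.05 by edgeR, red for higher and blue for lower in ALP, and open circles did not. The bHLH-PAS list has 0 genes higher and 5 lower, and the list of reported targets 4 higher and 5 lower.

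The ALP libraries differed in how far they departed from control, and the members differed in whether they followed this. Against the mean of the controls on the log2 CPM scale, Ahr was at -1.30 in ALP library A and -2.42 in ALP library B, and Tiparp at 0.83 and 1.30. Cyp1b1 was at -0.10 and -1.37, Arnt at -0.10 and -0.27, and Ahrr at 1.60 and 1.55. ALP library B was the further library for Ahr, Tiparp, Cyp1b1 and Arnt, and the ALP libraries were close for Ahrr. The same library was the further one for all 20 called lower genes of the 7 lists and for 11 of the 12 called higher, and for 91.3% and 92.5% of all called genes in these directions. The 1.27 between the ALP libraries for Cyp1b1 and the 1.11 for Ahr compare with a median of 0.216 over all tested genes.

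**Figure D4:**
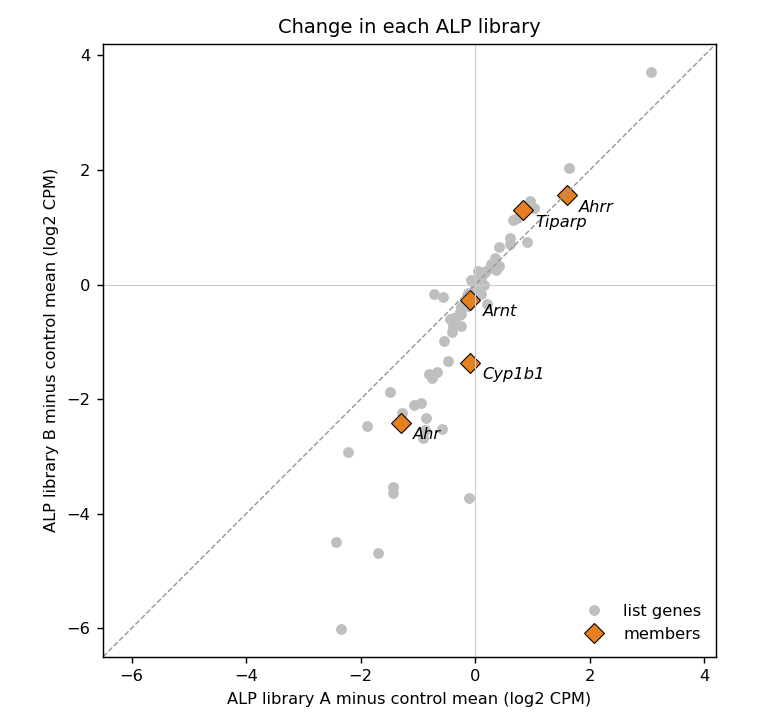
Log2 CPM of ALP library A (horizontal axis) and ALP library B (vertical axis), each minus the control mean, for the 5 tested members (orange diamonds) and the genes of the 7 lists (grey circles). The dashed line marks equal change in both. Ahr sits at -1.30 and -2.42, and Cyp1b1 at -0.10 and -1.37, below the line.

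The genes with the most similar profiles were sought over the 4 libraries as the smallest root-mean-square distance between centred log2 CPM. For Ahr these were Tsc22d3, at a distance of 0.020, with 59.4 and 27.6 CPM in ALP against 154 and 139 CPM in control, and Tmem140, at 0.026. For Tiparp they were Creld2 at 0.011 and Slpi at 0.016. For Cyp1b1 they were Nxph3 at 0.029 and Megf11 at 0.053, both at under 2 CPM, for Ahrr Relt at 0.041 and Gm8773 at 0.076, and for Arnt Tm2d2 at 0.007 and Chchd2 at 0.008. Of 12263 genes compared, 37 lay within 0.1 of Ahr, 176 of Tiparp, 6 of Cyp1b1, 4 of Ahrr and 1722 of Arnt.

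Of the 12 tested genes next to the members on the chromosome, 4 rose and 1 fell, where 30.9% of all tested genes passed. Around Ahr, Snx13 did not pass (-0.26 ± 0.11, adjusted p = 0.128) and Tspan13 rose by 1.21 ± 0.23 (adjusted p = 0.0191), at 350.5 and 479.5 kb. On either side of Ahrr, Exoc3 at 2.39 kb and Pdcd6 at 11.2 kb measured 76.0 and 74.2 CPM and 94.6 and 103 CPM in ALP, against 65.8 and 66.4 CPM and 89.4 and 84.6 CPM in control, and neither passed (adjusted p = 0.141 and 0.169). Next to Cyp1a1, Csk rose by 0.70 ± 0.10 (adjusted p = 0.0151) and Edc3 did not pass (adjusted p = 0.767). Next to Cyp1b1, Rmdn2 rose by 1.43 ± 0.35 (adjusted p = 0.0340) and Atl2 did not pass (adjusted p = 0.347). Beside Tiparp, Ssr3 rose by 0.85 ± 0.13 (adjusted p = 0.0151) and Lekr1 did not pass (adjusted p = 0.521), and beside Arnt, Golph3l fell by 0.60 ± 0.17 (adjusted p = 0.0492) and Setdb1 did not pass (adjusted p = 0.0850).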

How the data were processed

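Total RNA was extracted with TRIzol from the treated EpSC cultures, and a service company made the libraries, per the labels' protocols. The authors deposited 1 table holding, for 54532 mouse genes, a raw count per library. Another 4 per-library columns, which hold normalized values, were not used. The submitters' processing notes name HISAT2 2.0.5, featureCounts 1.5.0-p3 and the human build GRCh38, whereas 54495 of the gene identifiers match mouse GENCODE M21 (GRCm38), 98.3% of them at the same coordinates. Strandedness and the treatment of multi-mapping reads are not given in the sources consulted, and sense and antisense reads at one locus cannot be separated. RPKM was computed from the scaled counts and the gene length the authors gave, and served only to compare levels between genes. The columns were assigned to groups and not to single labelled samples, since their numbers differ from those of the labels. In 27 rows a symbol turned into a date was restored by identifier, and 0 rows named no gene.

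The counts went through edgeR 4.0.16 in R 4.3.3. After filterByExpr (minimum count 10, minimum total 15) and TMM scaling, ALP and control were compared by glmQLFit (legacy = FALSE) and glmQLFTest, two-sided, with Benjamini-Hochberg adjustment and a threshold of 0.05. The fit had 2 residual degrees of freedom. Each standard error is the log2 fold change over the root of its F statistic. The scripts were tested on simulated data. Alternatives were DESeq2 1.42.0, limma-voom (limma 3.58.1), RLE factors, library totals, no low-count filter and each library left out. Intervals cover counting error only and leave out the spread between libraries. PCR copies of a molecule cannot be told from separate molecules.

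The members and lists were chosen with earlier results of these data known. The genes named are the 6 members, in each list the up to 4 genes lowest in p, the 2 genes nearest in profile to each tested member, and the nearest tested gene on each side of each member, except 1 list gene that is not reported here. Any other list gene was named after its values were seen.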

Additional observations from a re-analysis of the deposited data

How the results depend on the processing

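Across tools, scalings and the filter the log2 fold change lay between -1.85 and -1.76 for Ahr and between 1.04 and 1.08 for Tiparp. With 1 library left out it ranged from -2.43 to -1.30 for Ahr, from 0.83 to 1.28 for Tiparp, from 1.29 to 2.84 for Ahrr, from -1.39 to -0.10 for Cyp1b1 and from -0.27 to -0.08 for Arnt. Without the low-count filter edgeR called 0 genes in all, 0 members and 0 list genes, with 7068, 3 and 39 at an unadjusted p under 0.05, over 25280 genes. DESeq2's Wald test called 4091 genes and limma-voom 4741, each with 2 members. Leaving out 1 library gave between 0 and 7518 called genes, between 0 and 4 called members and between 0 and 45 called list genes, with 0 without either control library. Such a fit assumes that the lone library varies as the pair in the other group does. Of the 27 list genes taken by the naming rule, 22 lost the call without the filter and 22 without either control library, and 3 lost it by DESeq2. No paired analysis was possible because the count columns, numbered 2 and 3 for ALP and 1 and 3 for control, share only 1 number between the groups. Depth limits Cyp1a1, with at most 3 counts per library, and Ahrr, with at most 15.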
